A study of Caenorhabditis elegans with 2 samples.

Results

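The 47 genes described here encode subunits of the vacuolar proton pump and cysteine or aspartyl proteases of Caenorhabditis elegans. They were chosen by name from 19973 protein-coding genes of the Ensembl annotation, and whether each protease works in lysosomes was not examined. Of these, 21 are proton pump genes (the vha genes and unc-32) and 26 are protease genes (cpr, cpl and asp). The question was how often binding of the nuclear hormone receptor NHR-21 lay at their promoters, and whether pump and protease genes differed in this. ChIP-seq had been done on whole L2 larvae of both sexes, of strain OP361, in 2 biological replicates of 1 group. The strain carries the integrated transgene wgIs361, which supplies eGFP-tagged NHR-21, in the unc-119(tm4063) mutant background, and both replicates share transgene and background. Copy number of the transgene and its expression beside the endogenous gene are unstated, the label for the antibody names nhr-21 and not the tag, and no control sample was analysed here. Since whole animals were used, the tissue in which a promoter was bound cannot be told from these data.

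The vacuolar ATPase is a rotary pump that acidifies lysosomes, endosomes and, in worms, the lumen around several epithelia. Its peripheral V1 sector hydrolyses ATP and its membrane-embedded V0 sector carries protons across the membrane. Lysosomal cysteine and aspartyl proteases (cathepsins) mature and work in the acidic lumen that the pump makes. In worms both groups of genes are prominent in the intestine, and many pump genes are also strongly expressed in the excretory cell, where NHR-31, another receptor of the same expanded HNF4-related family, is known to promote their expression.

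Proton pump genes had a bound promoter more often than protease genes. A promoter was counted as bound when the summit of a peak fell in the window of a gene, which reached 1000 bp upstream and 250 bp downstream of any of its annotated 5′ ends. The submitters' list of optimal peaks, pooled over both replicates, placed a summit there in 9 of 21 pump genes (42.9%, 95% Wilson interval 24.47 to 63.45%) and in 1 of 26 protease genes (3.85%, 0.682 to 18.9%), beside 2316 of all 19973 protein-coding genes (11.6%). The pump share was 39.01 percentage points above the protease share (95% Newcombe interval 15.25 to 59.85). These intervals cover counting error of genes only, and no test was made, since the genes were chosen with earlier results of these data known. The V1 subunits of the pump had a peak in 7 of 9 cases (77.8%, 45.3 to 93.7%) and V0 and accessory subunits in 2 of 12 (16.7%, 4.70 to 44.8%). Among the proteases, the single bound promoter was that of cpr-9, in 9 cysteine protease genes (11.1%, 1.99 to 43.5%), and 0 of 17 aspartyl protease genes had one (95% Wilson upper limit 18.4%).

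**Figure D1:**
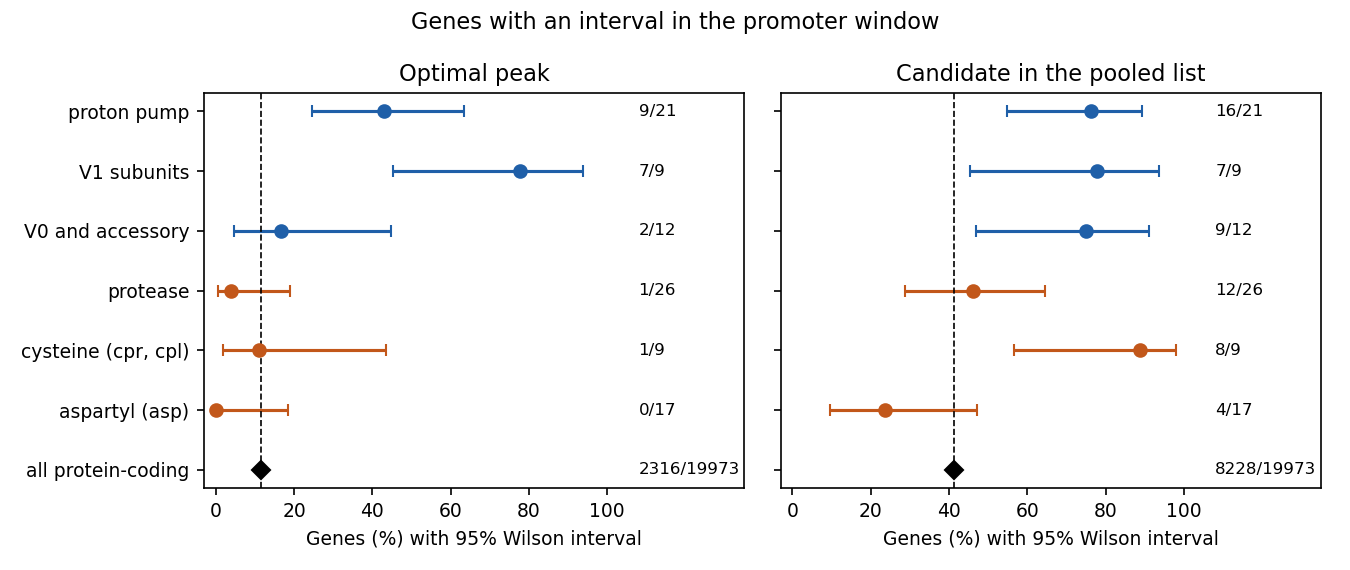
Share of genes with a summit in the promoter window, in percent with 95% Wilson intervals, for optimal peaks (left) and for all candidates of the pooled list (right). Counts stand at the right of each row, blue is the proton pump, orange the proteases, and the dashed line and diamond mark all protein-coding genes (11.6% and 41.2%); V1 subunits stood highest for optimal peaks at 7 of 9, and aspartyl proteases were at 0 of 17.

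The summit base and the 50 bases on either side are shown for 6 pump promoters, as examples of those that hold ACGCAG, or else GAGAGA, 2 of the 7 words searched here. They were read from the RefSeq WBcel235 genome (the ce11 build of the peak lists) and run 5′ to 3′ on the strand of the gene. Capitals mark ACGCAG, here always on the gene's strand, or else GAGAGA on either strand, which appears as TCTCTC when read from the other strand.
vha-12 (chrX:4190709-4190809, plus strand): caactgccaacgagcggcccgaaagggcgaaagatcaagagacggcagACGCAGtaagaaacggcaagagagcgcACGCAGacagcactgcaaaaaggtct
vha-1 (chrIII:9780746-9780846, plus strand): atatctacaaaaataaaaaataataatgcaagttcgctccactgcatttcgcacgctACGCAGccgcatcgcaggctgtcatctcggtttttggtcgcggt
vha-15 (chrX:2237556-2237656, plus strand): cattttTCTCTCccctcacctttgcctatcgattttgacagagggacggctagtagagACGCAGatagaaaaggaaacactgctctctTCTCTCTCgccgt
vha-8 (chrIV:6790568-6790668, plus strand): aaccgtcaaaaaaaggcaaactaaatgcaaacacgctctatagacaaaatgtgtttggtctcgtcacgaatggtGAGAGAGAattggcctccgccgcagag
vha-9 (chrII:10303882-10303982, minus strand): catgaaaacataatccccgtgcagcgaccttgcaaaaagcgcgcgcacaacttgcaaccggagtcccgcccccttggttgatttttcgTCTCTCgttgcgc
vha-14 (chrIII:9507914-9508014, plus strand): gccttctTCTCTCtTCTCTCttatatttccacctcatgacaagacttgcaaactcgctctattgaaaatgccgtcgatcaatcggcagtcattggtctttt

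The word ACGCAG lay in the summit window of 3 of the 9 pump peaks, those of vha-12, vha-1 and vha-15, beside 12.6% of all 3647 optimal peaks and 14.6% of the 1951 optimal peaks in a promoter window. In vha-12 it occurred at 2 places, and 1 of them covered the summit, running from base -2 to base 3 counted from the summit. In vha-1 it ran from 7 to 12 bases past the summit, and in vha-15 from 8 to 13. All 4 copies read in the same direction as the gene. GAGAGA lay in 5 pump windows, those of vha-8, vha-9, vha-14, vha-15 and vha-16, beside 24.3% of all optimal peaks and 22.6% of those in promoter windows. Its copies lay between bases 24 and 50 or between bases -44 and -31, so none covered the summit. No pump window held CACGTG (the E-box core), TCACGTGA (which contains it, and is the fuller lysosomal-gene element of TFEB-type factors) or TGATAA (a word of GATA factors). Nor did any hold AGGTCA, a nuclear receptor half-site word, or its variant AAGTCA. Over all optimal peaks their shares were 7.21%, 1.18%, 11.6%, 3.76% and 3.92%. Among all words of 6 bases, some occurred in more pump windows than ACGCAG did. The word CAAAAA lay in 5 of 9, beside 20.55% of optimal peaks in promoter windows, AGAGCG in 4 (9.69%), TGCAAA in 4 (11.2%), GCAAAA in 4 (12.8%), AGAGAC in 4 (16.6%) and AGAGAG, which overlaps GAGAGA, in 5 (18.8%). These were picked for their counts after the windows were seen. All 7 words were searched on both strands, and a word is a description and not a binding site. The GC content of the pump windows had a median of 48.5% (33.7 to 57.4%), against 45.5% over optimal peaks in promoter windows.

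The single protease peak lay over a small RNA gene. The same window is given for the summit upstream of cpr-9, again from RefSeq WBcel235 and on the strand of the gene, and it held none of the 7 words.
cpr-9 (chrV:12002146-12002246, plus strand): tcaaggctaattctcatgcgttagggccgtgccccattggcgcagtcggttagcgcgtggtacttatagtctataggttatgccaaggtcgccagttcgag

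The peak spanned chrV:12002001-12002390 with a signal of 171.1, at rank 574 of 3647 optimal peaks, and ranked 521 in replicate 1 (signal 75.5) and 563 in replicate 2 (signal 102.4). Each signal here is a value that the authors deposited with the interval, and it serves to rank intervals of 1 list. This summit fell inside the tRNA gene WBGene00014406 (chrV:12002176-12002260, plus strand) and the noncoding RNA gene F57F5.7 (chrV:12002131-12002280, minus strand). It lay 857 bp upstream of cpr-9, a cathepsin B-like cysteine protease gene, and 399 bp upstream of the divergent gene gcy-33, a guanylate cyclase gene. No pump peak had a noncoding gene within 250 bp of its summit. Over the whole list, 334 of 3647 optimal peaks (9.16%) had a summit within 250 bp of a tRNA, snRNA or snoRNA gene. Without such summits the protease count was 0 of 26 and the pump count stayed at 9 of 21. Which gene this peak belongs to was not tested.

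The strongest pump peak was that of vha-12, the B subunit of V1. It spanned chrX:4190717-4190861, 335 bp upstream of the gene's 5′ end, and its signal was 236.9. That placed it at rank 309 of 3647 optimal peaks, with ranks of 323 in replicate 1 (signal 94.3) and 315 in replicate 2 (signal 141.5). No source states a shared scale for the lists, so ranks and not signals are compared between them. Next came vha-8, the E subunit of the V1 stalk, with a peak of signal 212.4 at chrIV:6790541-6790716. It ranked 398 in the pooled list, 367 in replicate 1 (signal 90.2) and 436 in replicate 2 (signal 119.6). This summit lay 456 bp upstream of vha-8 but 130 bp upstream of its divergent neighbour C17H12.2, so the peak belonged to the windows of both. Both peaks stood within the strongest 10.9% of the list.

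**Figure D2:**
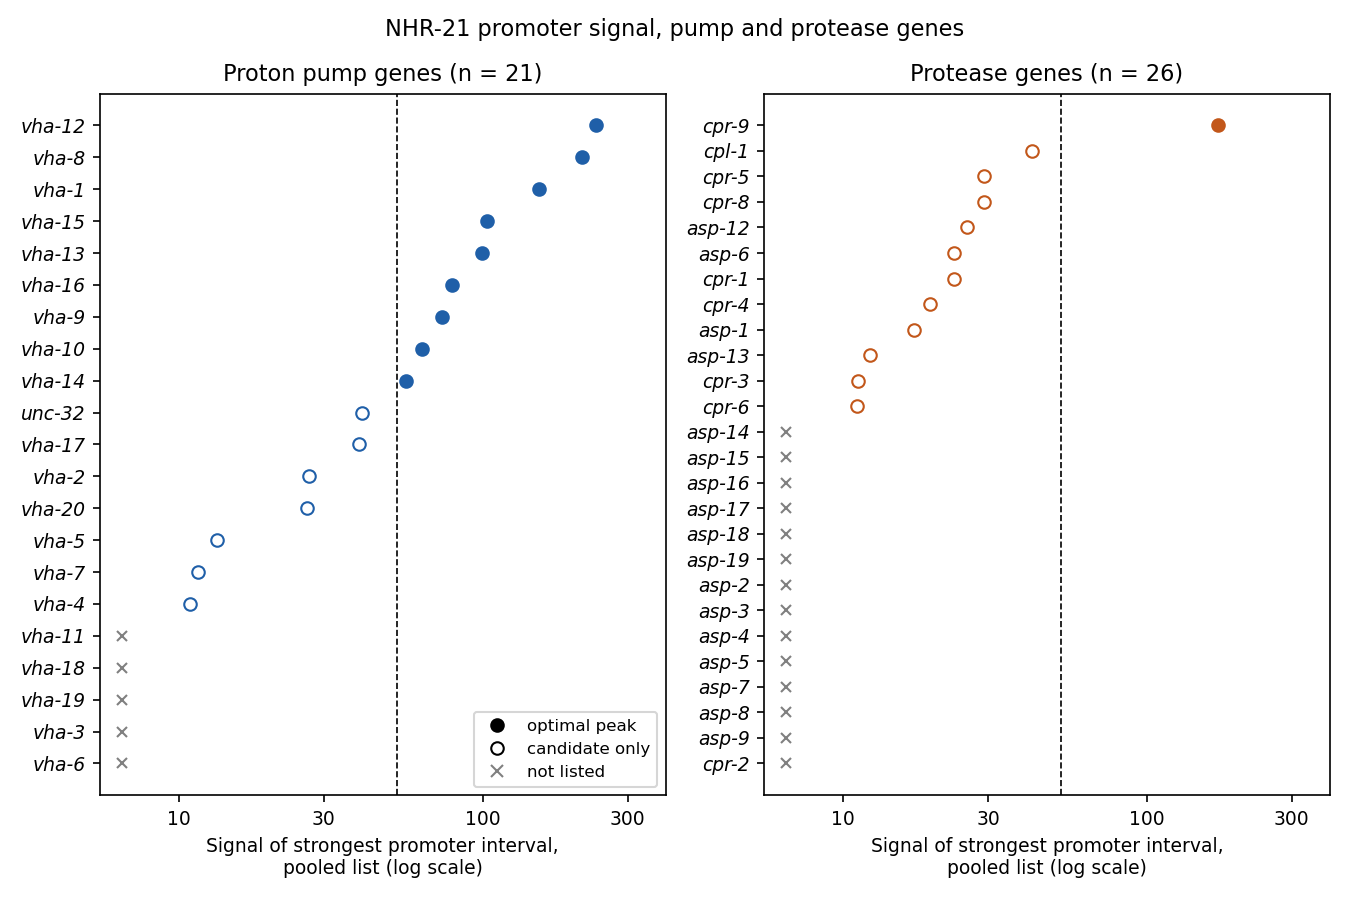
Signal of the strongest interval in each gene's promoter window in the pooled list (log axis), for 21 proton pump genes (left) and 26 protease genes (right). Filled points are optimal peaks, open points candidates without an optimal peak, crosses genes not listed (placed at the left edge with no value), and the dashed line is the lowest optimal signal, 52.2. Of the 10 filled points, 9 are pump genes from 55.9 to 236.9.

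The other V1 peaks were weaker. The A subunit gene vha-13, which encodes the catalytic ATP-binding subunit, had a signal of 99.7 (rank 1497; ranks 2306 and 1265 in replicates 1 and 2). Its peak at chrV:14350958-14351347 lay 556 bp upstream, with the summit inside the 3′ UTR of cept-2, the gene ahead of it on the same strand. The H subunit gene vha-15 had a signal of 103.2 at chrX:2237411-2237800, 305 bp upstream (rank 1428; 1848 and 1274 in the replicates). These A and H subunit peaks stood near the median optimal signal, which was 87.3 over peaks and 92.5 over the 2316 genes with a promoter peak. The F subunit gene vha-9 had a signal of 73.6 at chrII:10303737-10304126, 219 bp upstream (rank 2315; 2891 and 2409). The G subunit gene vha-10 had a signal of 63.2 at chrI:5609914-5610303 (rank 2831; 3281 and 3047). Its summit was the only pump summit downstream of the 5′ end, 161 bp into the gene and within its coding exon. The D subunit gene vha-14 had the weakest pump peak, of signal 55.9 at chrIII:9507769-9508158, 136 bp upstream (rank 3336; 2809 and 4493).

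Of the V1 genes, vha-11 (the C subunit) and vha-18 (a second H subunit gene) had no optimal peak. In the window of vha-11, the pooled list had no candidate and replicate 1 had a weak one of rank 18363 (signal 8.49). The gene lies 893 bp downstream of vha-3 on the same strand, and vha-3 had no optimal peak either. For vha-18 the pooled list and both replicate lists had no interval in the window. Candidates here are the intervals of 3 longer lists of 30000 each, 1 pooled and 1 per replicate, deposited as input to the reproducibility threshold. By the submitters' naming these lists hold background as well as peaks, and 20225 of the 30000 pooled candidates had a deposited q-value above 0.05, so a candidate alone is not a bound site. The −log10 q-value was 3.998 at every optimal peak. At pump candidates without an optimal peak it ran from 0.136 (vha-4) to 3.529 (unc-32). At protease candidates without one it ran from 0.146 (cpr-6) to 3.998 (cpl-1), so this value alone did not set optimal peaks apart.

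In the V0 sector, peaks were found at vha-1 and vha-16. The c subunit gene vha-1, part of the proton-carrying ring, had a peak of signal 153.4 at chrIII:9780762-9780884, with rank 700 in the pooled list and 813 and 673 in the replicates. Its summit lay 458 bp upstream of vha-1 and 442 bp upstream of the divergent gene sqv-3, a glycosyltransferase gene of chondroitin synthesis. Just downstream of vha-1 on the same strand, with a gap of 401 bp, lies the c subunit gene vha-2. The same peak was 1368 bp upstream of vha-2 and so outside its window. Within its own window vha-2 had a candidate of signal 26.9 at rank 8440 (4831 and 10266 in the replicates). The vha-2 summits lay apart, 345 bp upstream in replicate 1 and 190 bp upstream in replicate 2. The d subunit gene vha-16 had a peak of signal 79.25 at chrI:5082285-5082674, 201 bp upstream (rank 2097; 2469 and 2209).

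None of the 4 genes for the a subunit, which holds the half-channels for protons and directs the pump to a given membrane, had an optimal peak in its window. The nearest to the threshold was unc-32, the a subunit of synapses, with a signal of 40.1 at rank 5071. Its strongest interval ranked 3037 in replicate 1, 230 bp upstream, and 5811 in replicate 2, 524 bp upstream, so the replicates placed it differently. For vha-5, an a subunit of the epidermis and excretory cell, the strongest candidate had a signal of 13.3 at rank 21274, with rank 13798 in replicate 1 and no interval there in replicate 2. For vha-7 it had a signal of 11.6 at rank 25215, with rank 28014 in replicate 1 and none in replicate 2. The pooled vha-7 summit, 628 bp upstream, was also in the window of the divergent gene C26H9A.3. For vha-6, the a subunit of the intestinal apical membrane, the 4 lists held no interval in the window.

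Optimal peaks nevertheless lay within 2500 bp upstream of 2 of these a subunit genes, beyond their windows. A peak of signal 298.6 at chrIII:8904175-8904392 (rank 183; 160 and 210 in the replicates) was 1330 bp upstream of unc-32, and stronger than any peak in a member's window. It was 154 bp from the 5′ end of lin-9, the divergent neighbour of unc-32 and a gene of the DREAM-type chromatin complex, and it counted for lin-9. A peak of signal 100.5 at chrIV:8301935-8302324 (rank 1476; 1681 and 1521) was 1838 bp upstream of vha-5. It was intergenic, 1362 bp from the nearest 5′ end, that of F35H10.5, and in no gene's promoter window. With a window from 2000 bp upstream, unc-32, vha-2 and vha-5 were added and the pump count was 12 of 21. The protease count was then 1 of 26, and the share of all protein-coding genes was 14.99%. The peak added for vha-2 was the one already counted for vha-1, and that for unc-32 was the lin-9 peak.

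**Figure D3:**
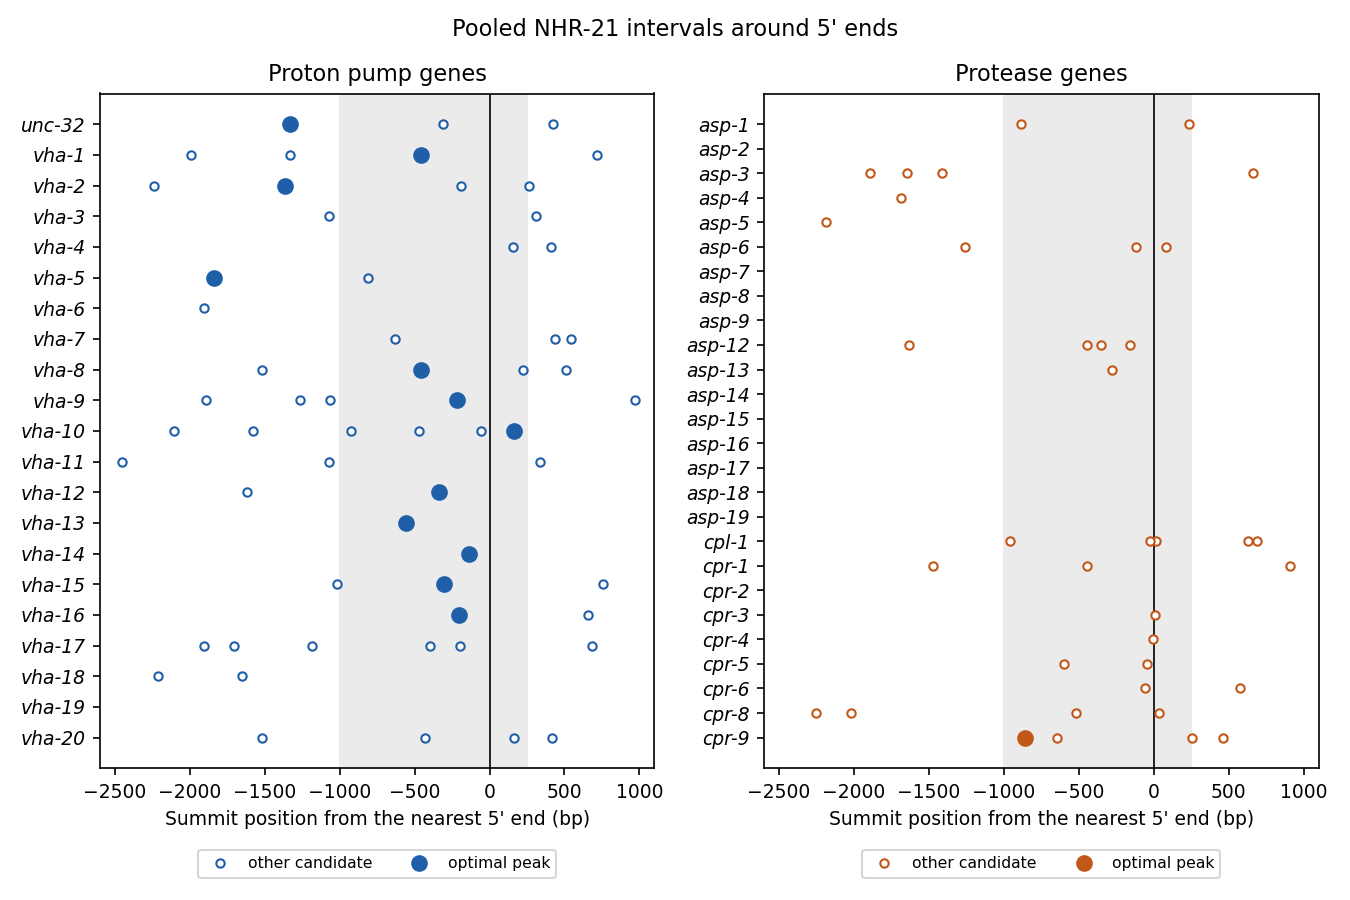
Position of pooled intervals around each gene's nearest annotated 5′ end, in bp, with upstream to the left, for proton pump genes (left) and protease genes (right). Filled points are optimal peaks, open points other candidates, the grey band is the promoter window, and the large points outside it belong to unc-32, vha-2 and vha-5. A gene with several 5′ ends is placed by the nearest, so the strongest cpl-1 interval stands at 687 bp although it lies in the window of its other 5′ end. Optimal peaks farther downstream than the axis reaches, among them 1 at cpl-1, are not drawn.

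The remaining V0 and accessory genes had candidates below the threshold or none. The e subunit gene vha-17 had a signal of 39.1 at rank 5252, but ranks of 10245 in replicate 1 and 3249 in replicate 2. Only the second was within the strongest 3647. The pooled summit, 399 bp upstream, was also in the window of the divergent gene F49C12.12. The summits were 500 bp upstream in replicate 1 and 347 bp upstream in replicate 2. For vha-20 the signal was 26.4 at rank 8650. Replicate 1 had rank 6158 at 458 bp upstream, and replicate 2 had rank 14159 at 657 bp upstream. The c″ subunit gene vha-4 had a signal of 10.9 at rank 26922, with rank 11246 in replicate 1. Its pooled summit, 155 bp downstream, was also in the window of the divergent gene T01H3.5. The overlapping interval of replicate 2 (rank 9234) had its summit outside the window. The c subunit gene vha-3 was listed in replicate 1 alone (rank 24463), and vha-19, an accessory subunit related to Ac45, in replicate 2 alone (rank 17016). The vha-3 summit was also in the window of the divergent gene Y38F2AL.12.

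Summits of the bound members differed by 2 to 18 bp across the pooled and replicate lists for the 9 pump peaks, and by 56 bp for cpr-9. Ranks differed at most 1.82-fold between replicates, by a median of 1.19-fold, and 9 of the 10 peaks were among the strongest 3647 of both, beside 2729 of all 3647 optimal peaks (74.8%). The optimal peaks were thresholded on these same replicates, so this closeness is in part built in and is no trait of the members. The exception was vha-14, which stood at rank 4493 in replicate 2. Taking the strongest 3647 intervals of each replicate in place of the optimal peaks gave 10 of 21 pump genes and 1 of 26 protease genes in replicate 1, beside 11.2% of all genes. It gave 9 of 21 and 1 of 26 in replicate 2, beside 11.3%. The pump set of replicate 1 added unc-32, and that of replicate 2 added vha-17 and lost vha-14.

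**Figure D4:**
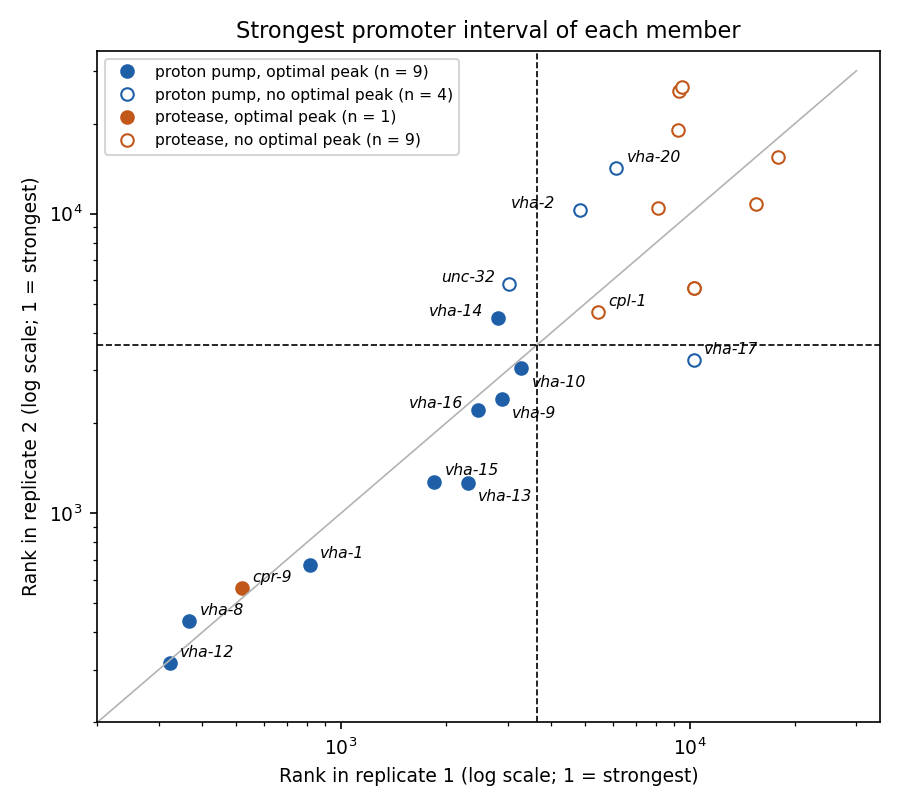
Rank of the strongest promoter interval in replicate 1 (horizontal) and replicate 2 (vertical), on log axes with 1 as the strongest, for the 23 members listed in both replicates, each replicate's own strongest being a different interval at asp-1, cpr-5 and cpr-8. Filled points have an optimal peak, blue is the proton pump (n = 13), orange the proteases (n = 10, with cpr-5 and cpr-8 at the same point), dashed lines stand at rank 3647 and the grey line marks equal ranks. All filled points but vha-14 lie within both dashed lines.

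Over all pooled candidates, optimal peaks included, the cysteine proteases were listed more often than the aspartyl proteases. The pooled candidates placed a summit in the window of 16 of 21 pump genes (76.2%, 54.9 to 89.4%) and 12 of 26 protease genes (46.2%, 28.8 to 64.5%), beside 41.2% of all protein-coding genes. By family these were 8 of 9 cysteine protease genes (88.9%, 56.5 to 98.0%) and 4 of 17 aspartyl protease genes (23.5%, 9.56 to 47.3%), a difference that was not tested. The pump sectors, unlike for optimal peaks, had near equal shares. A pooled candidate was listed at 7 of 9 V1 genes (77.8%, 45.3 to 93.7%) and 9 of 12 V0 and accessory genes (75.0%, 46.8 to 91.1%). Of the genes without an optimal peak, 7 of 12 pump genes, 7 of 8 cysteine protease genes and 4 of 17 aspartyl protease genes had a candidate. Of all 19973 protein-coding genes, 8228 had a pooled candidate, the 2316 with an optimal peak among them, and 11745 had none. Among members with a candidate and no optimal peak, some had a q-value of at most 0.05 as deposited. They were 4 of the 7 pump genes (unc-32, vha-17, vha-2 and vha-20) and 4 of the 11 protease genes (cpl-1, cpr-5, cpr-8 and asp-12). Counted by interval, with optimal peaks included, 9775 of all 30000 pooled candidates had such a q-value. In replicate 1 the counts of genes with any candidate were 18 of 21 pump genes and 10 of 26 protease genes, beside 41.9% of all genes. In replicate 2 they were 14 of 21 and 13 of 26, beside 42.0%. The pump share minus the protease share was 30.04 points in the pooled list (1.91 to 51.9), 47.25 points in replicate 1 (19.4 to 65.8) and 16.7 points in replicate 2 (-11.2 to 40.8), where the interval included 0. Counting unlisted genes below all listed ones, the median strongest pooled signal was 39.1 for pump genes, 73.6 for V1 and 19.8 for V0 and accessory genes. Among protease genes and among all protein-coding genes the middle gene was not listed.

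Of the cysteine proteases without an optimal peak, cpl-1, the cathepsin L gene needed in embryos, came nearest. Its strongest interval had a signal of 41.9 at rank 4798 (5449 and 4678 in the replicates). It was the member next below the threshold, which lay at rank 3647 and signal 52.2, and vha-14 at rank 3336 and signal 55.9 was the member next above it. That summit was 748 bp upstream of the downstream 1 of the gene's 2 annotated 5′ ends and 687 bp downstream of the other. Replicate 1 placed its strongest summit at chrV:16594428 and replicate 2 at chrV:16594646. Outside the windows of cpl-1, an optimal peak of signal 84.6 (rank 1907; 1489 and 2511 in the replicates) lay 1509 bp downstream of its nearest 5′ end. It was in the window of srh-269. Optimal peaks within 2500 bp downstream, but beyond the window, also lay at vha-1, vha-2, vha-10, vha-12 and vha-20. For vha-1 and vha-2 it was the same peak, in a coding exon and the window of R10E11.6. Those at vha-10 and vha-20 were in the windows of ubl-5 and lgc-25, and that at vha-12 in no gene's window. The share of all genes with such a peak was not counted. The divergent cathepsin B-like genes cpr-5 and cpr-8, 566 bp apart, shared a candidate of signal 29.2 at rank 7556, 45 bp upstream of cpr-5. The overlapping interval ranked 17324 in replicate 1 and 5649 in replicate 2, while the strongest interval of replicate 1 in these windows, at rank 10251, lay elsewhere, 596 bp upstream of cpr-5. Signals were lower at cpr-1 (23.2, rank 10335), cpr-4 (19.3, rank 13180), cpr-3 (11.2, rank 26232) and cpr-6 (11.15, rank 26343). Of these, cpr-1 ranked 9316 in replicate 1 and 25739 in replicate 2, cpr-4 ranked 9499 and 26529, and cpr-3 ranked 17855 and 15519. The cpr-3 summits were 132 bp downstream in replicate 1 and 89 bp upstream in replicate 2. At cpr-6 replicate 2 had a summit in the window (rank 8738), and the overlapping interval of replicate 1 (rank 13355) had its summit outside it. At cpr-2 no list had an interval.

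The 4 aspartyl protease genes with a pooled candidate were all weak. For asp-12 the signal was 25.6 at rank 9020 (8100 and 10484 in the replicates). This summit was 447 bp upstream of the downstream 1 of the gene's 2 annotated 5′ ends and 986 bp downstream of the other. For its divergent neighbour asp-6 the signal was 23.25 at rank 10321 (15451 and 10757). The asp-6 summit was also in the window of asp-12. At asp-1, an intestinal enzyme, it was 17.1 at rank 15438, and the overlapping interval ranked 28858 in replicate 1 and 18991 in replicate 2. The strongest interval of replicate 1 in its window, at rank 9253, lay elsewhere, 446 bp upstream. The signal was 12.2 at rank 23626 for asp-13, which was listed in neither replicate. The genes asp-3 and asp-4, whose products take part in necrotic death of neurons, were listed in replicate 2 alone, at ranks 19302 and 14432. The other 11 aspartyl protease genes had no interval in any list, as against 1 of 9 cysteine protease genes and 2 of 21 pump genes. The share of all genes in no list was not counted. In the pooled list alone, 11745 of all 19973 protein-coding genes had no candidate. There the counts were 13 of 17 aspartyl protease genes, 1 of 9 cysteine protease genes and 5 of 21 pump genes.

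Position on the chromosomes differed between the groups. The protease genes were mostly on chromosome V, which held 21 of 26, and 1 of these 21 had an optimal peak (4.76%, 0.846 to 22.7%), beside 7.97% of all chromosome V genes. Of the 5 others, 4 were on X and 1 on IV, and none had a peak. Only 2 pump genes lay on chromosome V, vha-13 with a peak and vha-18 without. The other pump genes with a peak lay on chromosomes I (2 of 2 genes), II (1 of 3), III (2 of 4), IV (1 of 7) and X (2 of 3). The share over all genes ran from 7.97% on V to 16.1% on III. Most protease genes thus shared a chromosome with the lowest background, and the part of chromosome and of gene group cannot be told apart.

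The pump peaks were also set beside all promoter peaks in height and place. Their median signal was 99.7, beside 92.5 over the 2316 genes with a promoter peak. Their summits lay at a median of 305 bp upstream (from 556 bp upstream to 161 bp downstream), beside 244 bp upstream over those genes. The median width was 390 bp in both. A summit was shared with another gene's window at 2 of 9 pump genes, vha-8 and vha-1, and at 1022 of the 2316. These comparisons were not tested.

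Other genes of the lysosome were described from 3 lists. Of 18 genes for pump assembly, lysosomal signalling and fusion, 4 had an optimal peak (22.2%, 9.001 to 45.2%) and 15 a pooled candidate, beside 11.6% and 41.2% of all genes. Their median strongest signal was 28.7. The strongest was at rbc-2, a rabconnectin gene whose family helps V1 join V0, with a signal of 217.1 at chrIII:2528725-2528916, 121 bp upstream (rank 375; 458 and 350 in the replicates), in a window shared with Y54F10AM.15 and ndua-8. The second rabconnectin gene, rbc-1, had a weaker peak of 66.3, 796 bp upstream (rank 2675, replicates 1662 and 4022). At rab-7, the small GTPase of late endosomes and lysosomes, the signal was 143.7, at 795 bp upstream (rank 795, replicates 1827 and 520). This summit was also in the windows of mex-1 and W03C9.5. The TFEB homologue hlh-30, a transcription factor for lysosome and autophagy genes, had a peak of signal 100.6 at chrIV:4028201-4028590, 269 bp upstream (rank 1474; 1700 and 1492).

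Acid hydrolases other than the cpr, cpl and asp genes had an optimal peak at 1 of 32 (3.13%, 0.554 to 15.7%) and a pooled candidate at 13 (40.6%), beside 11.6% and 41.2% of all genes. The peak was at the cathepsin Z gene cpz-2, with a signal of 122.0 at chrV:13380209-13380598 (rank 1064; 1353 and 718), 785 bp upstream of cpz-2 and also in the window of ifbp-1. Of 19 genes for lysosomal membrane proteins and lysosome-related organelles, 2 had an optimal peak (10.5%, 2.94 to 31.4%) and 8 a pooled candidate (42.1%), both near the share of all genes. A peak lay 561 bp upstream of glo-4, a gene for gut granule formation (signal 124.8, rank 1017, replicates 881 and 1392). Another lay 944 bp upstream of lmp-1, a LAMP-like membrane protein gene (signal 73.8, rank 2308, replicates 3095 and 1962). In both of these lists the middle gene was not listed, as among all protein-coding genes.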

How the data were processed

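Lists of ChIP-seq intervals for 2 biological replicates and their pool were used in ce11, whose coordinates are those of WBcel235. Fragments measured 150 to 350 bp, per the labels. Per the text listing deposited beside the lists, intervals came from ChIP alignments together with a further alignment file. The sources used here do not give the aligner, peak caller, settings or reproducibility threshold. Each candidate list held 30000 intervals, and the optimal list held exactly the 3647 strongest pooled candidates. The signal of each interval was deposited by the authors, as was its −log10 q-value, which was the same for every optimal peak and so did not rank them. Interval bounds and summits were given in bp by the authors. Read totals are not in the lists, so depth is unknown. Whether the replicates came from separate cultures is stated only by the label of biological replicate.

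Gene models came from Ensembl release 115, and a gene counted when a summit lay in the window of any of its 5′ ends. Since many worm transcripts are trans-spliced, transcription can start upstream of an annotated 5′ end. A summit in several windows counted for each gene. Genes sharing a summit are not independent. Shares carry 95% Wilson intervals and differences Newcombe intervals, computed with Python 3.11.15, numpy 2.4.6 and pandas 2.3.3. The window assignment was tested on simulated summits and recovered 200 of 200 planted genes. The members and gene lists were chosen with earlier results of these data known, so no set was tested. Named were all pump genes, proteases with a pooled candidate, genes sharing the summit of their strongest interval, and pathway genes with an optimal peak. The other 2 asp genes named for a single replicate, lin-9, the peaks outside the windows and the small RNA genes were chosen after seeing their values. Alternatives covered the window, the 5′ end used, the overlap rule, the threshold, agreement of replicates, leaving out each replicate, and small RNA genes. The ce10 lists were not used.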

Additional observations from a re-analysis of the deposited data

How the results depend on the processing

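The pump share stayed above the protease share under all 10 alternatives, by 19.96 to 53.3 percentage points. The lowest came with the stronger 50% of the optimal peaks (interval -0.0405 to 41.5), where 5 pump genes and 1 protease gene had a peak. Pump counts under the other 9 alternatives were 7 to 12 of 21. The lowest of these, 7, counted a summit for the nearest 5′ end only, which took the shared peaks from vha-1 and vha-8. Protease counts were 0 with a window from 500 bp upstream, 0 with the nearest 5′ end only and 0 without summits within 250 bp of a tRNA, snRNA or snoRNA gene, an alternative chosen after seeing the data. Each of these drops the cpr-9 peak. They were 1 otherwise.

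The share of all genes was 9.15% with the window from 500 bp, 14.99% from 2000 bp, 10.7% with the most upstream 5′ end, 12.4% with any overlap of 1 bp, 8.98% with the nearest 5′ end, 6.24% with the stronger 50%, 8.89% with peaks strong in both replicates and 11.1% without the small RNA summits. Leaving out a replicate gave 9 to 10 pump genes, 1 protease gene, a difference of 39.01 to 43.8 points, and 11.2 to 11.3% of all genes. Candidate counts stayed within 1.5 times. No paired analysis was possible because the samples form 1 group. With 9 pump peaks and no read totals, the counts limit the precision.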
